A study of Mus musculus with 2 samples.

Results

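The microRNA genes Mir193a, Mir365-2, Mir193b and Mir365-1 form 2 clusters in the mouse genome, each with 1 Mir193 gene followed by 1 Mir365 gene on the same strand. The 4 genes were chosen by name, with Ensembl identifiers matched to GENCODE M21 symbols, and all 4 have a row among the 1973 microRNA gene rows of the deposited tables. Levels were measured by microRNA sequencing of RNA under 30 nucleotides from whole kidneys of B6NCrl mouse embryos at embryonic day 16.5, healthy and of mixed sex. The series holds 1 group with 2 libraries, called replicates 1 and 2, so no contrast between conditions exists. Replicate 2 pooled kidneys from 41 embryos and replicate 1 was also a pool. The labels give both pools the same donor record, so the spread between the libraries may be partly technical.

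A microRNA gene is transcribed into a longer RNA, from which a hairpin and then short mature strands, named 5p and 3p after their side of the hairpin, are cut. A mature strand guides the silencing complex to messenger RNAs, mostly through its seed at bases 2 to 8. In podocytes, the filtering cells of the glomerulus, miR-193a is known to repress Wt1, and mice that overexpress it develop glomerulosclerosis. The Mir193b and Mir365-1 cluster has been linked in mouse to brown fat differentiation. Podocytes are a small part of a fetal kidney, and in whole tissue fewer cells of a type and less RNA per cell cannot be told apart. The tables hold microRNA genes and no podocyte messenger RNA, so the link of these genes to podocytes was not tested.

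The mature strands are shown first, because their identity decides which reads a gene row can hold. They come from RefSeq on GRCm38.p6, where all 4 genes matched by symbol. They run 5′ to 3′, with the seed in capitals:
miR-193a-3p: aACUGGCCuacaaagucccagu
miR-193b-3p: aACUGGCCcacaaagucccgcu
miR-193a-5p: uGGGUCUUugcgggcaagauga
miR-193b-5p: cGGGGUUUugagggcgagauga
miR-365-2-5p: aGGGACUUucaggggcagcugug
miR-365-1-5p: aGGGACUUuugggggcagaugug
miR-365-3p: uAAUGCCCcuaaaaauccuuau

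These 7 mature strands carry 5 seeds. The 3p strands of Mir193a and Mir193b share the seed ACUGGCC and are identical at 19 of 22 bases. Counted from 1 at the 5′ end, with the miR-193a-3p base first, they differ by U9C, A20G and G21C, all outside the seed. Their 5p strands are identical at 17 of 22 bases, and 2 of the 5 differences, U5G and C6U, fall in the seed. The 5p strands of Mir365-2 and Mir365-1 share the seed GGGACUU and are identical at 20 of 23 bases, with C10U, A11G and C19A from miR-365-2-5p to miR-365-1-5p. The 3p strands of both Mir365 genes are identical at 22 of 22 bases. None of the 5 seeds occurs in any other entry among the 1738 mature entries of the RefSeq table.

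The hairpins are shown with their mature strands in capitals, as they place the identical stretch of the Mir365 pair in its setting:
Mir193a: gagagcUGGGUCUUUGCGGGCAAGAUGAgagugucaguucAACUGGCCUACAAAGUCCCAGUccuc
Mir365-2: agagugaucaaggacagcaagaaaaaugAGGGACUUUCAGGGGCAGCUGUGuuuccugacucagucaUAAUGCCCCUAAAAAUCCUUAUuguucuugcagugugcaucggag
Mir193b: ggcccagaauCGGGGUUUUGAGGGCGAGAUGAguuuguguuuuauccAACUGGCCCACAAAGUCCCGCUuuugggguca
Mir365-1: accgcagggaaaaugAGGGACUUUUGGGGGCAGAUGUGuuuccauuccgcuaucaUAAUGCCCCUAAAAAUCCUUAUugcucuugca

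The longest stretch common to the Mir365 hairpins was 27 nucleotides, ucaUAAUGCCCCUAAAAAUCCUUAUug, and it holds the whole miR-365-3p, in capitals. A read inside this stretch matches both Mir365 genes equally well. The deposited tables keep reads that map to several places in a row of their own, which made up 28.0% of replicate 1 and 25.3% of replicate 2. A miR-365-3p read within the stretch is therefore in neither Mir365 row, while a read of the 5p strand, or one whose end passes the stretch, can be told apart. The Mir193 hairpins share at most 10 nucleotides in a row, so whole mature strands of these copies can be told apart. The tables do not say which arm a read came from.

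In mm10 coordinates, Mir193a lies at chr11:79711969-79712034 and Mir365-2 at chr11:79726400-79726511, both on the plus strand. They are separated by 14365 nucleotides, and no other gene of GENCODE M21 overlaps either. Mir193b lies at chr16:13449523-13449601 and Mir365-1 at chr16:13453840-13453926, also on the plus strand and separated by 4238 nucleotides. Both lie in an intron of Gm15738, an antisense gene annotated on the minus strand. The protein-coding gene Mrtfb, which encodes a cofactor of serum response factor, ends 31994 nucleotides upstream of Mir193b. The reads of the members were on the annotated strand. On the opposite strand Mir193a had 0 reads in replicate 1 and 1 read in replicate 2, and the other 3 genes had 0 reads in each library.

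Reads on the strand of the gene numbered 5317669 in replicate 1 and 7128703 in replicate 2 over all microRNA gene rows. Levels are given as counts per 1000000 of these reads (CPM), so that 3 reads, the upper limit that a count of 0 allows, correspond to 0.564 CPM in replicate 1 and to 0.421 CPM in the deeper replicate 2. A microRNA read spans a whole mature strand, so levels were not divided by length unless stated. Intervals are exact Clopper-Pearson 95% intervals and cover counting error only. Of 1973 rows, 710 had a read and 387 reached 1 CPM in both libraries, which is called detected here. Markers of the tissue and some markers of other cell types were present. The posterior-body microRNAs Mir10a, Mir10b and Mir196b stood at 154681, 61412 and 24463 CPM, and Mir204, Mir192 and Mir194-2, known from adult kidney, stood between 95.2 and 227 CPM. Mir194-2 shares miR-194-5p with Mir194-1, so reads of that strand can map to several places. Endothelial Mir126a stood at 52093 CPM. Erythroid Mir451a, myeloid Mir223, muscle Mir206 and Mir208b, liver Mir122 and neuronal Mir137 stood between 20.5 and 367 CPM. Other muscle microRNAs stood lower, with Mir499 at 8.53, Mir208a at 5.09 and Mir133b at 2.63 CPM, and Mir1a-1 had 0 reads in its row. The 3 neuronal Mir124a genes had 1 read in all, but these copies make the same mature miR-124, whose reads can map to several places. The part of these cell types in the levels of the Mir193 and Mir365 genes was not tested.

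The gene rows of all 4 members stood low in the fetal kidney, and the Mir193 rows held most of their reads. Reads that match both Mir365 copies are in neither Mir365 row, so these shares do not cover them. Together the 4 genes had 182 reads in replicate 1, a level of 34.2 CPM, and 295 reads in replicate 2, a level of 41.4 CPM. Mir193b contributed 67.0% of these reads in replicate 1 and 68.5% in replicate 2. Mir193a contributed 26.4% and 26.1%, so the Mir193 shares were close in both libraries. Mir365-2 contributed 5.49% and 5.08%, and Mir365-1 contributed 1.10% and 0.339%.

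Mir193a, of the chromosome 11 cluster, had 48 reads in replicate 1 and 77 reads in replicate 2. These correspond to 9.03 CPM (95% interval 6.66 to 12) in the first library and 10.8 CPM (8.52 to 13.5) in the second. The mean level was 9.91 ± 1.26 CPM (SD, n = 2), rank 278 of 1973 rows. Replicate 2 was the higher library, by less than either counting interval spans.

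Mir365-2, its partner, had 10 reads in replicate 1 and 15 in replicate 2. These correspond to 1.88 CPM (0.902 to 3.46) and 2.10 CPM (1.18 to 3.47), with a mean of 1.99 ± 0.158 CPM (SD, n = 2) and rank 363. It was thus detected in both libraries, close to the 1 CPM limit, and the lower bound of replicate 1 lay under that limit.

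Mir193b, of the chromosome 16 cluster, was the highest of the 4 genes in both libraries, with 122 reads in replicate 1 and 202 in replicate 2. Its level was 22.9 CPM (19.1 to 27.4) for replicate 1 and 28.3 CPM (24.6 to 32.5) for replicate 2, with a mean of 25.6 ± 3.81 CPM (SD, n = 2) and rank 232. Its lowest counting bound, 19.1 CPM, lay above the highest bound of Mir193a, 13.5 CPM.

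Mir365-1, which follows Mir193b, had 2 reads in replicate 1 and 1 read in replicate 2. Its level was 0.376 CPM (0.0455 to 1.36) for replicate 1 and 0.140 CPM (0.00355 to 0.782) for replicate 2. Both values lay under the level of 3 reads, so in its row the gene was not measurably above a count of 0 at this depth. It was the only member below 1 CPM in both libraries, and its rank, 573, is shared with other genes of equal counts.

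**Figure D1:**
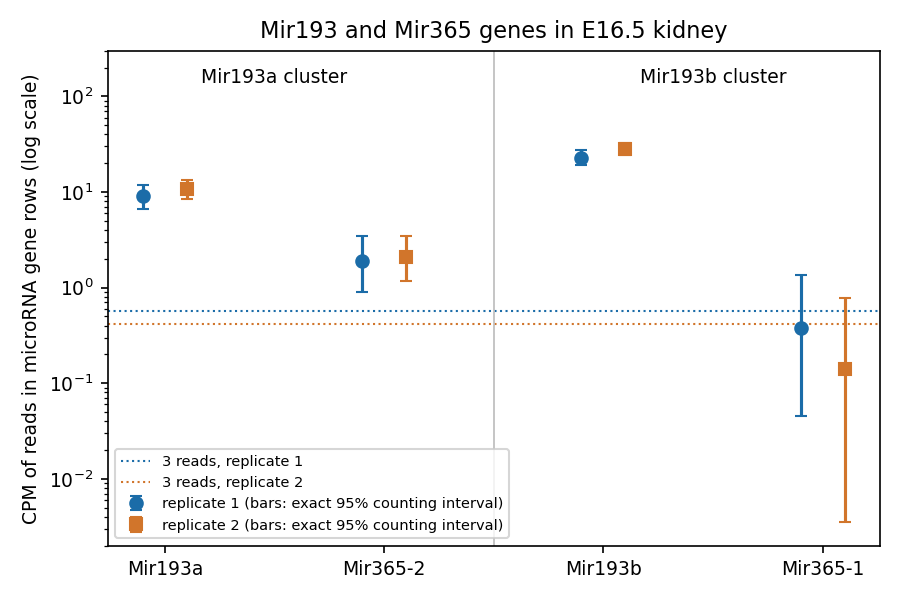
CPM of Mir193a, Mir365-2, Mir193b and Mir365-1 in each library on a log scale, with points for replicates 1 and 2, bars for exact 95% counting intervals and dotted lines for the level of 3 reads. Mir193b stands highest at 22.9 and 28.3 CPM, Mir193a next at 9.03 and 10.8 CPM, and Mir365-1 lies under the dotted lines.

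Placed among all rows, Mir193b, Mir193a and Mir365-2 sat below the middle of the detected profile, and Mir365-1 fell outside it. Detected genes had a median of 64.2 CPM, above every member. Mir193b had 231 rows above it, Mir193a 277, Mir365-2 362 and Mir365-1 572. Mir10a, the highest gene, stood 6033-fold above Mir193b and 15602-fold above Mir193a in mean CPM.

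**Figure D2:**
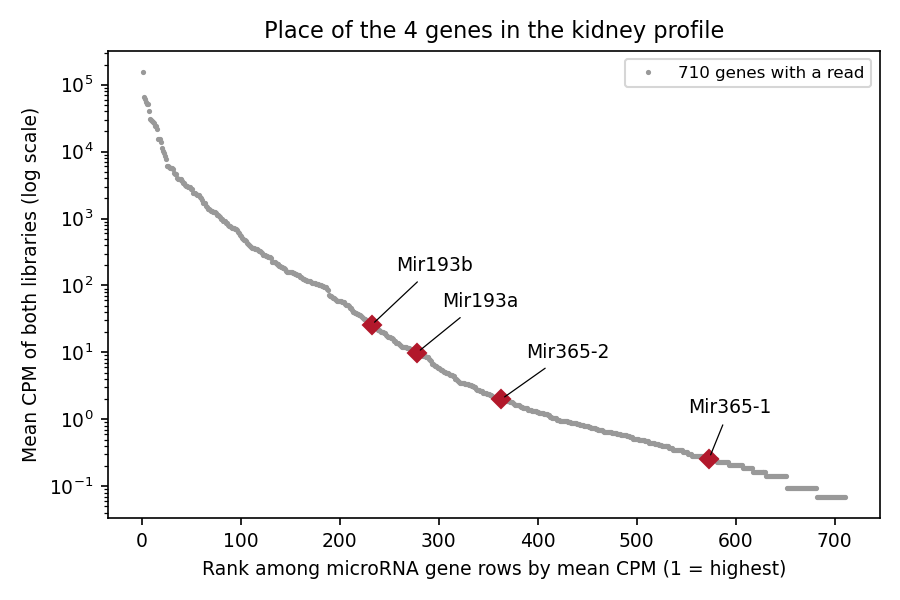
Mean CPM of both libraries on a log scale against rank for the 710 genes with a read, with diamonds for the 4 members. Mir193b and Mir193a lie at ranks 232 and 278, Mir365-2 at rank 363, and Mir365-1 at rank 573 in the tail of genes with few reads.

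The genes closest in level were found by rank, over 2 libraries. Directly above Mir193b stood Mir495 (26.5 ± 3.65 CPM), Mir377 and Mir770, and directly below it Mir450-1 (24.9 ± 4.08 CPM), Mir383 and Mir138-1. Around Mir193a stood Mir1249 (10.5 ± 1.49 CPM), Mir582 and Mir1968 above, and Mir128-2 (9.71 ± 0.634 CPM), Mir802 and Mir592 below. Around Mir365-2 stood Mir871 (2.06 ± 0.257 CPM), Mir3060 and Mir3572 above, and Mir6399, with the same counts as Mir365-2, Mir6900 and Mir5103 below. The member minus its neighbour was between -0.12 and 0.26 in mean log2 CPM for these 18 neighbours, which were chosen for their closeness in level. Next to Mir365-1, Mir29b-1, Gm28033, Mir5627, Mir669m-1 and Mir6910 had the same 2 and 1 reads, and Mir7668 had 0 reads in replicate 1.

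The clusters were then compared. In summed gene rows, the Mir193a cluster stood below the Mir193b cluster in both libraries, by nearly the same ratio. Summed over its genes, the Mir193a cluster had 10.9 and 12.9 CPM in replicates 1 and 2, and the Mir193b cluster had 23.3 and 28.5 CPM. The mean levels were 11.9 ± 1.41 CPM for the Mir193a cluster and 25.9 ± 3.65 CPM for the Mir193b cluster (SD, n = 2). The log2 ratio of the Mir193a cluster over the Mir193b cluster was -1.10 in replicate 1 and -1.14 in replicate 2, a mean of -1.12 ± 0.03 (SD, n = 2). The linear ratio was 0.468 (counting interval 0.336 to 0.644) for replicate 1 and 0.453 (0.350 to 0.583) for replicate 2.

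To judge such differences, each was set against a 95% limit from the replicate SD of genes of similar level, which had between 1/3 and 3 times the mean CPM and a read in both libraries. For the cluster sums this limit was 0.73 on the log2 scale, from 97 and 99 genes, and the ratio lay beyond it. A two-sided exact sign-flip test over 2 libraries gave p = 0.5, the smallest it can give. Most genes of this profile stood at unlike levels: of 74691 pairs of detected genes, 89.2% lay beyond their own limit. Passing it thus says only that the summed rows stood at different levels. Reads that match both Mir365 copies are in neither sum, so the levels of the whole clusters were not compared. With reads divided by the length of each gene row, the log2 ratio was -0.96.

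The cluster ratio followed the Mir193 genes. Mir193a over Mir193b had a log2 ratio of -1.35 in replicate 1 and -1.39 in replicate 2, a mean of -1.37 ± 0.03 (SD, n = 2) against a limit of 0.74. In linear terms Mir193a had 0.393 times the reads of Mir193b (0.276 to 0.554) in the first library and 0.381 times (0.289 to 0.498) in the second. Both genes supply a 3p strand with the same seed, and Mir193b held 72.2% of their reads.

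The Mir365 genes stood in the opposite order, on few reads. Mir365-2 had 10 and 15 reads, against 2 and 1 reads for Mir365-1, ratios of 5 (1.07 to 46.9) for replicate 1 and 15 (2.31 to 631) for replicate 2. The mean log2 ratio was 3.11 ± 1.12 (SD, n = 2), beyond its limit of 1.65, and 1.26 on the log2(CPM + 1) scale. In replicate 1 alone it was 2.32, inside the limit of 2.34 for a single library, although its counting interval lay above a ratio of 1. Only replicate 2, with 1 read of Mir365-1, lay beyond that limit by itself. Genes with a read in only 1 library stayed out of both limits, which may be too small at the level of Mir365-1. Reads that match both copies equally well are not part of this order.

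Within each cluster the Mir193 gene stood above the Mir365 gene. Mir193a over Mir365-2 had a ratio of 4.8 (2.40 to 10.6) for replicate 1 and 5.13 (2.93 to 9.61) for replicate 2, a mean log2 ratio of 2.31 ± 0.07 (SD, n = 2) against a limit of 1.25. Mir193b over Mir365-1 had a ratio of 61 (16.5 to 509) for replicate 1 and 202 (35.8 to 8018) for replicate 2, a mean log2 ratio of 6.79 ± 1.22 (SD, n = 2). On the log2(CPM + 1) scale it was 4.40, and its size rests on the 2 and 1 reads of Mir365-1. The Mir193 gene thus held 82.8% (70.6 to 91.4) and 83.7% (74.5 to 90.6) of the reads of the Mir193a cluster, and 98.4% (94.3 to 99.8) and 99.5% (97.3 to 99.99) of those of the Mir193b cluster, in replicates 1 and 2. Both ratios leave out reads that match both Mir365 copies, so neither gives the balance of mature strands made from a cluster.

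**Figure D3:**
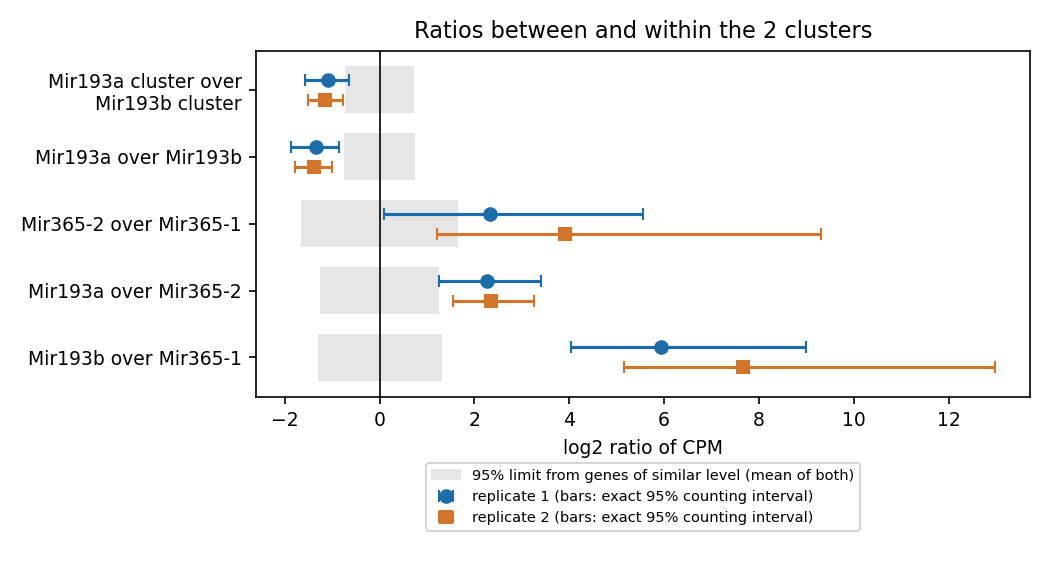
Log2 ratios of CPM between and within the clusters, with points for replicates 1 and 2, bars for exact 95% counting intervals and grey bands for the 95% limit from genes of similar level, drawn for the mean of both libraries. The Mir193a cluster lies at -1.10 and -1.14 relative to the Mir193b cluster, while Mir365-2 over Mir365-1 lies to the right of 0 with wide intervals.

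The Mir365 genes were set beside other genes that share a mature strand, since these lose reads in the same way. RefSeq mature entries matched 916 of the 1973 rows by symbol. Of 37 genes whose every listed mature strand occurs whole in another microRNA gene, 70.3% had no read and 27.0% were detected, so rows of such genes can still hold reads. Of 51 genes with a shared and an unshared strand, the kind to which both Mir365 genes belong, 9.80% had no read and 78.4% were detected. Of 828 genes with no shared strand, among them Mir193a and Mir193b, 33.7% had no read and 36.5% were detected. The classes may differ in other ways, and whether a shared strand changes detection was not tested.

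Exact pairs, in which each copy shares a mature strand only with the other, numbered 28, of which 22 had reads. The highest sums were those of the Mir92 pair (3206 ± 325 CPM), the Mir196a pair (2468 ± 25.4 CPM), the Mir16 pair (1532 ± 72.1 CPM) and the Mir181a pair (1379 ± 143 CPM). The Mir365 pair summed to 2.26 and 2.24 CPM in replicates 1 and 2, and 19 pairs stood above it. The nearest above were the Mir135a pair (10.3 ± 0.955 CPM) and the Mir129 pair (11.6 ± 1.71 CPM), and below it stood the Mir3070 pair (1.20 ± 0.701 CPM) and the Mir29b pair (0.889 ± 0.726 CPM). Mir365-2 held 88.5% of the summed level of its pair, while the higher copy held a median of 84.3% over the 22 pairs, with 8 pairs more uneven than the Mir365 pair.

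**Figure D4:**
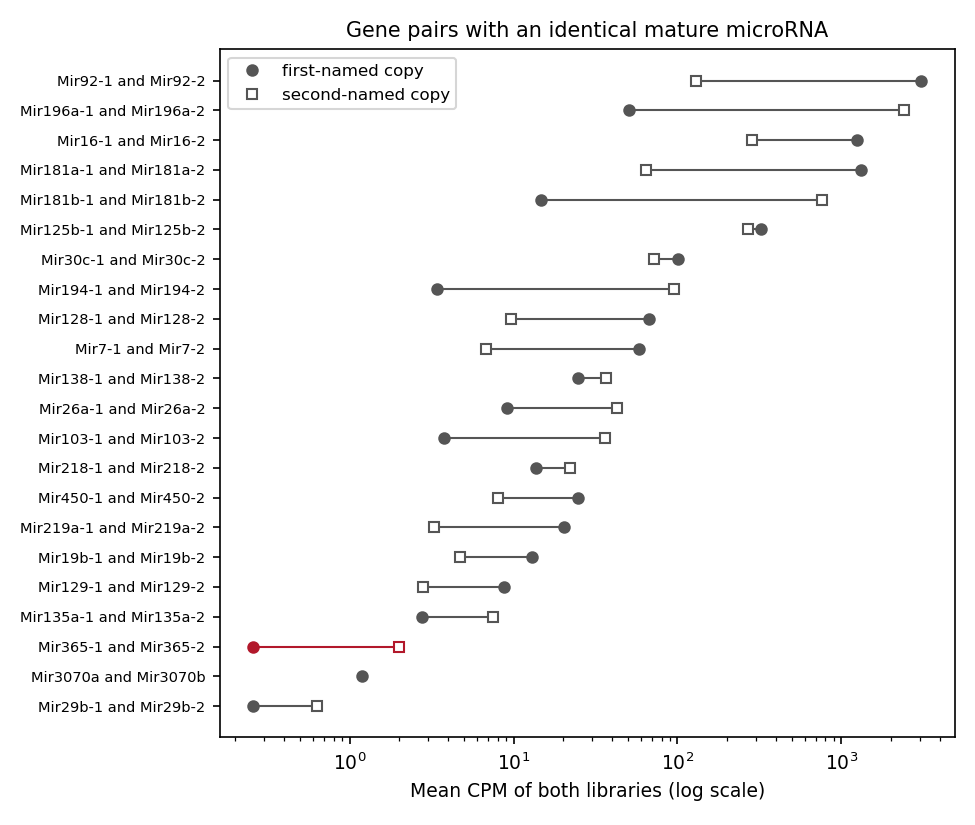
Mean CPM of both copies, on a log scale, for the 22 gene pairs with reads that share an identical mature strand, with circles for the first-named copy, squares for the second and the Mir365 pair in red; Mir3070b had no read and is not drawn. Mir365-2 at 1.99 CPM and Mir365-1 at 0.258 CPM lie near the bottom of the pairs.

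Other microRNAs linked to podocytes stood above the rows of the Mir193 and Mir365 genes, which leave out reads that match both Mir365 copies. Of a list of 11 such genes, all 11 were detected and all 11 lay above Mir193b, with a median of 133 CPM against 64.2 CPM over all detected genes. Over all 1973 rows 387 were detected, and 231 lay above Mir193b. Mir30e (21388 ± 2557 CPM) and Mir30a (15587 ± 2106 CPM) belong to the miR-30 family, which podocytes need for their maintenance, and Mir30e stood 834-fold above Mir193b in mean CPM. Mir93, of a cluster in the replication gene Mcm7, stood at 9574 ± 266 CPM and Mir21a, linked to fibrosis, at 7664 ± 1080 CPM. The lowest was Mir29a, of a family that represses matrix genes, at 49.8 ± 14.6 CPM, 1.94-fold above Mir193b. Of the 11 genes 8 passed the binomial test between the libraries described below, which takes in counting error only, with 2 higher and 6 lower in replicate 1. Over all 455 genes tested 33.6% passed, 17.8% higher and 15.8% lower. In the edgeR exact test with a biological coefficient of variation of 0.2, 0.659% of the 455 genes passed.

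MicroRNAs linked to brown fat spread on both sides of the Mir193 rows. Of a list of 11 genes, 10 had a row, 8 were detected, 7 lay above Mir193b and 3 below Mir193a. Over all 1973 rows 387 were detected, 231 lay above Mir193b and 277 above Mir193a. Mir196a-2 (2417 ± 17.2 CPM) and Mir455 (935 ± 134 CPM), which promote brown or beige fat in mouse, were among the highest. Mir27b (1875 ± 222 CPM) and Mir155 (228 ± 18.7 CPM), which restrain it, were the other two. Mir133b, of the family that represses Prdm16, stood at 2.63 ± 0.541 CPM, and Mir133a-1 and Mir133a-2 had 0 reads. These copies make the same mature miR-133a, whose reads can map to several places, so their place below Mir193a sets no limit on its level. Of the 8 genes tested between the libraries 5 passed, 2 higher and 3 lower in replicate 1, where 33.6% of all tested genes passed in the binomial test described next.

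The libraries were compared gene by gene on reads scaled by TMM, with a two-sided exact binomial test adjusted by Benjamini-Hochberg over the 455 genes with at least 10 reads. This test takes in counting error only and compares these libraries, not conditions. At an adjusted p under 0.05, 33.6% of the 455 genes differed: 17.8% were higher in replicate 1 and 15.8% were lower. None of the 3 members tested passed, nor did any in the edgeR exact test with a biological coefficient of variation of 0.2, in which 0.659% of the genes passed. The log2 ratio of replicate 1 over replicate 2 was -0.12 for Mir193a (counting SE 0.27; unadjusted p = 0.716, adjusted p = 0.839, exact binomial test), -0.16 for Mir193b (SE 0.17; unadjusted p = 0.336, adjusted p = 0.512, exact binomial test) and -0.02 for Mir365-2 (SE 0.59; adjusted p = 1, exact binomial test). Each error was as large as its ratio or larger, so differences of this size were not detectable at this depth.

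Fewer genes passed at the levels of the members. Among tested genes within 3-fold of the member in mean CPM, 16.5% passed around Mir193a, 19.2% around Mir193b and 9.55% around Mir365-2. Small differences are harder to detect on few reads, so these shares do not measure how closely the libraries matched at such levels. Mir365-1, with 3 reads over both libraries, was below the minimum of 10 reads. With no such minimum it did not pass either (adjusted p = 0.770, exact binomial test), and no fold is given, since both libraries lay under 3 reads. With library totals in place of TMM all log2 ratios shifted by -0.14, and 21.2% of the genes that passed were higher in replicate 1, against 52.9% with TMM. Under totals the members stood at -0.26 for Mir193a, -0.30 for Mir193b and -0.16 for Mir365-2, and still none passed.

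**Figure D5:**
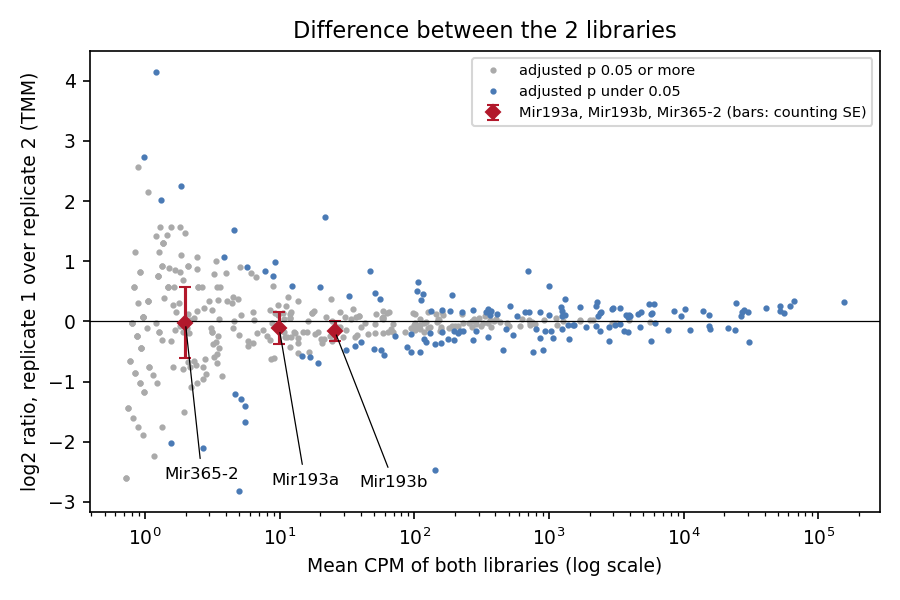
Log2 ratio of replicate 1 over replicate 2 after TMM scaling, against mean CPM on a log scale, for the tested genes with a read in both libraries, with red diamonds and bars (counting SE) for Mir193a, Mir193b and Mir365-2. The 3 members lie between -0.16 and -0.02, among genes that did not pass the test.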

How the data were processed

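Kidney microRNA reads of 2 libraries were used as the authors deposited them, as raw counts for each annotated microRNA gene. The accompanying text files name assembly mm10 and annotation M4. No aligner or counting program is named in the sources used here. Each table has 3 count columns without names, and the first is the sum of the other 2 in all 1973 gene rows. The second, taken as reads on the annotated strand, was used. Rows without a gene stayed out of library sizes (54.2% and 50.4% of reads in replicates 1 and 2). Symbols and coordinates came from GENCODE M21, which matched 1894 rows, and sequences from RefSeq. Mir146a is named Mir146 there.

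CPM, ratios and tests were computed in Python 3.11.15 with scipy 1.17.1, and TMM factors (0.952 and 1.05) in edgeR 4.0.16. With 1 library a side no residual degrees of freedom remained for a quasi-likelihood fit. Alternatives were library totals, DESeq2 1.42.0 size factors, no filter, and the edgeR exact test with a biological coefficient of variation of 0.2. The members, the lists and the rule for named genes (neighbours in rank, the 4 highest and the lowest of each list, the highest and nearest pairs) were chosen with earlier results of these data known.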

Additional observations from a re-analysis of the deposited data

Results flagged for a closer look

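Reads that mapped to several places lie outside the gene rows used for levels and far exceed the 3 reads that a count of 0 allows: 3323410 reads in replicate 1 and 3718198 in replicate 2. A read of miR-365-3p that lies within the 27 nucleotides common to both Mir365 hairpins matches both genes equally well and would belong to this class, but the tables do not split these reads by sequence, so no level of miR-365-3p can be given from them.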

How the results depend on the processing

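The ratio of the Mir193a cluster over the Mir193b cluster kept its direction and stayed beyond the replicate limit under all 6 alternatives run, from -0.96 to -1.37 on the log2 scale, the last with the Mir193 rows only. Mir365-2 over Mir365-1 ranged from 2.32 to 3.91 with either library left out, and lay within its limit without replicate 2. On log2(CPM + 1) it was 1.26, and Mir193b over Mir365-1 was 4.40. Against all reads of a table, rows that name no gene included, Mir193a stood at 4.64 CPM, Mir193b at 12 CPM and Mir365-2 at 0.931 CPM. The edgeR exact test with a coefficient of variation of 0.2 called 3 of 455 genes between the libraries, 0.659%, against 153 in the binomial test, and Mir193a, Mir193b and Mir365-2 were called under none of the 4 alternatives run. Leaving out a library allows no comparison of libraries and was not run for it. No paired analysis was possible because the series holds 1 group. Depth limits the Mir365 rows more than the Mir193 rows, as 1 read is worth 0.188 and 0.140 CPM in replicates 1 and 2. Reads that match both Mir365 copies stay out of these rows at any depth.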
